A study of Fundulus heteroclitus with 8 samples.

Results

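Transcripts of the mitochondrial ribosome, of the protein import machinery and of the inner membrane carrier proteins were followed in the testis of the mummichog (Fundulus heteroclitus), a small estuarine killifish. The members were all non-control probes whose product name on the array contains 28S ribosomal, 39S ribosomal, mitochondrial ribosomal protein, mitochondrial import, import inner membrane translocase, mitochondrial carrier or ADP/ATP translocase. This gave 59 of the 7157 probes of the design, under 48 product names. Of these, 13 were named for the small ribosomal subunit, 24 for the large subunit, 8 for import and 14 for carriers. The label "mitochondrial ribosome and protein import" thus covers carriers of metabolites too, which are not part of either machine. RNA came from adult male testis: 4 unexposed control males and 4 males exposed for 21 days to 50 µg/L of waterborne 5α-dihydrotestosterone (DHT50). DHT is an androgen that aromatase cannot convert to an estrogen. Samples are biological replicates from individual fish by the labels, and whether controls received a carrier solvent is not stated in them. Each sample had 1 single-colour Cy3 Agilent array, and all 8 arrays were on 1 slide.

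Mitochondria keep a small genome whose messages are read by a ribosome of their own. All proteins of that ribosome are encoded in the nucleus, made in the cytosol and carried inward through the translocases of the outer membrane (TOM) and the inner membrane (TIM). The small (28S) subunit decodes the message and the large (39S) subunit joins the amino acids, while carriers of the SLC25 family pass nucleotides and metabolites across the inner membrane. In the testis, mitochondria power the sperm tail, and in steroid-producing cells they hold the first step of steroid synthesis.

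Values are log2 processed signals minus the 75th percentile of the array, so that 0 is as bright as that percentile. The signal of a probe depends on the probe, so levels are set side by side only between arrays. Testing required a signal well above background on 4 or more of the 8 arrays, a filter that kept 55 of the 59 members and 5989 probes in all. The members not tested were mitochondrial ribosomal protein L51, TIM9 A and one probe of mitochondrial carrier family protein, each above background on 0 of 8 arrays, and the other probe of that last name, above background on 3. The brightness of an array, its log2 75th percentile, ran from 7.97 on DHT50 2 to 11.21 on control 1, and the number of members above background from 47 of 59 on DHT50 2 to 55 on controls 1, 3 and 4 and on DHT50 1 and 4. The median member had a spot signal of 4.18 times its local background on DHT50 2, 7.07 times on DHT50 3 and 10.3 times on DHT50 4, against 15.3 to 37.1 times on the other 5 arrays. DHT50 1 to 3 lay in row 1 of the slide with control 1, and DHT50 4 in row 2 with controls 2 to 4. Of the testis markers, DEAD-box protein 4 (vasa, a germ cell marker) was above background on 8 of 8 arrays. Cytochrome P450 17A1 was so on 7 and Steroidogenic acute regulatory protein on 6. Of the 10 testis and germ cell probes, 5 were above background on DHT50 2, 7 on DHT50 3 and 9 or 10 on each other array. Of all probes, 66.3% to 87.0% were above background on an array, so these flags do not establish tissue identity.

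The comparison asks which of these transcripts differed between DHT-exposed and control males. Of the 55 tested members, 45 had a lower mean level in DHT50 and 10 a higher one, where 46.4% of all tested probes were lower. The median log2 change of the members was -0.45, against 0.06 over all tested probes. No single member passed: limma called 0 of 55 at an adjusted p under 0.05, and 0% of all probes, with an adjusted p of 0.685 or more for every member. At an unadjusted p under 0.05 by limma there was 1 member of 55, which was lower, beside 4.71% of all probes. Of those 282 probes, 85 were lower and 197 higher in DHT50. A log2 change below -0.5 was found for 25 members, and for 19.7% of all probes. These counts and medians are descriptions of the list, and no list test was made. In whole testis, fewer cells of a type and less RNA per cell cannot be told apart.

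**Figure D1:**
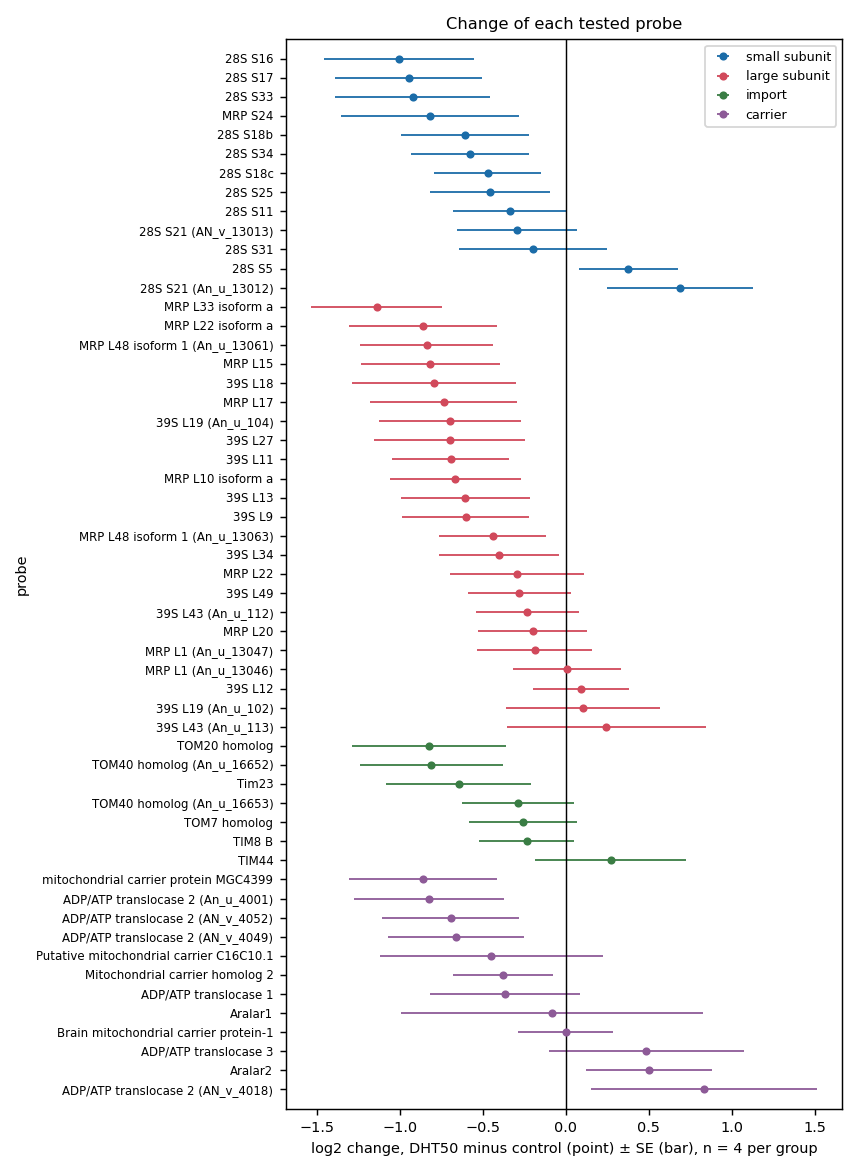
Log2 change of each of the 55 tested probes, DHT50 minus control, on the horizontal axis, with bars of ± 1 SE (n = 4 per group) and colours for the 4 classes. Most points lie left of 0, down to -1.14, and 3 lie above 0.5, the highest at 0.83.

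The 4 DHT50 males did not share the lower levels equally. Relative to each probe's control mean, the median of the 55 members was 0.04 on DHT50 1, -0.94 on DHT50 2, -0.74 on DHT50 3 and -0.37 on DHT50 4. Control medians were -0.05, -0.06, 0.04 and 0.09 for controls 1 to 4. By this median DHT50 1 thus lay among the controls and the other 3 below all of them. The median over all tested probes was -0.23, 0.17, 0.14 and 0.16 on DHT50 1 to 4. Below the lowest control lay 6 members on DHT50 1, 36 on DHT50 2, 41 on DHT50 3 and 29 on DHT50 4. The matching shares of all tested probes were 24.6%, 30.6%, 24.7% and 18.2%, against 10.9%, 65.5%, 74.5% and 52.7% of the members. DHT50 2, 3 and 4 were all below the lowest control for 24 of the 55 members, with DHT50 1 inside the control range for 12 of these and above it for 11. This joint count was not made over all tested probes or over another list. It does not show whether the pattern was more frequent among the members. The pattern was not confined to them. Cytosolic ribosomal probes of 40S S13 (An_u_310), 60S L21 (An_u_2350) and 60S L27 (An_u_2600) also had DHT50 2 to 4 below all controls. DHT50 1 was inside the control range on each of these. Other probes of that list lacked the pattern, and a probe of 40S S25 (An_u_1052) had DHT50 2 to 4 above all controls. Above the highest control lay 17 members on DHT50 1 and 9, 5 and 4 on DHT50 2 to 4, or 30.9%, 16.4%, 9.1% and 7.3%. Of all tested probes, 17.8%, 36.4%, 31.9% and 29.2% lay there.

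**Figure D2:**
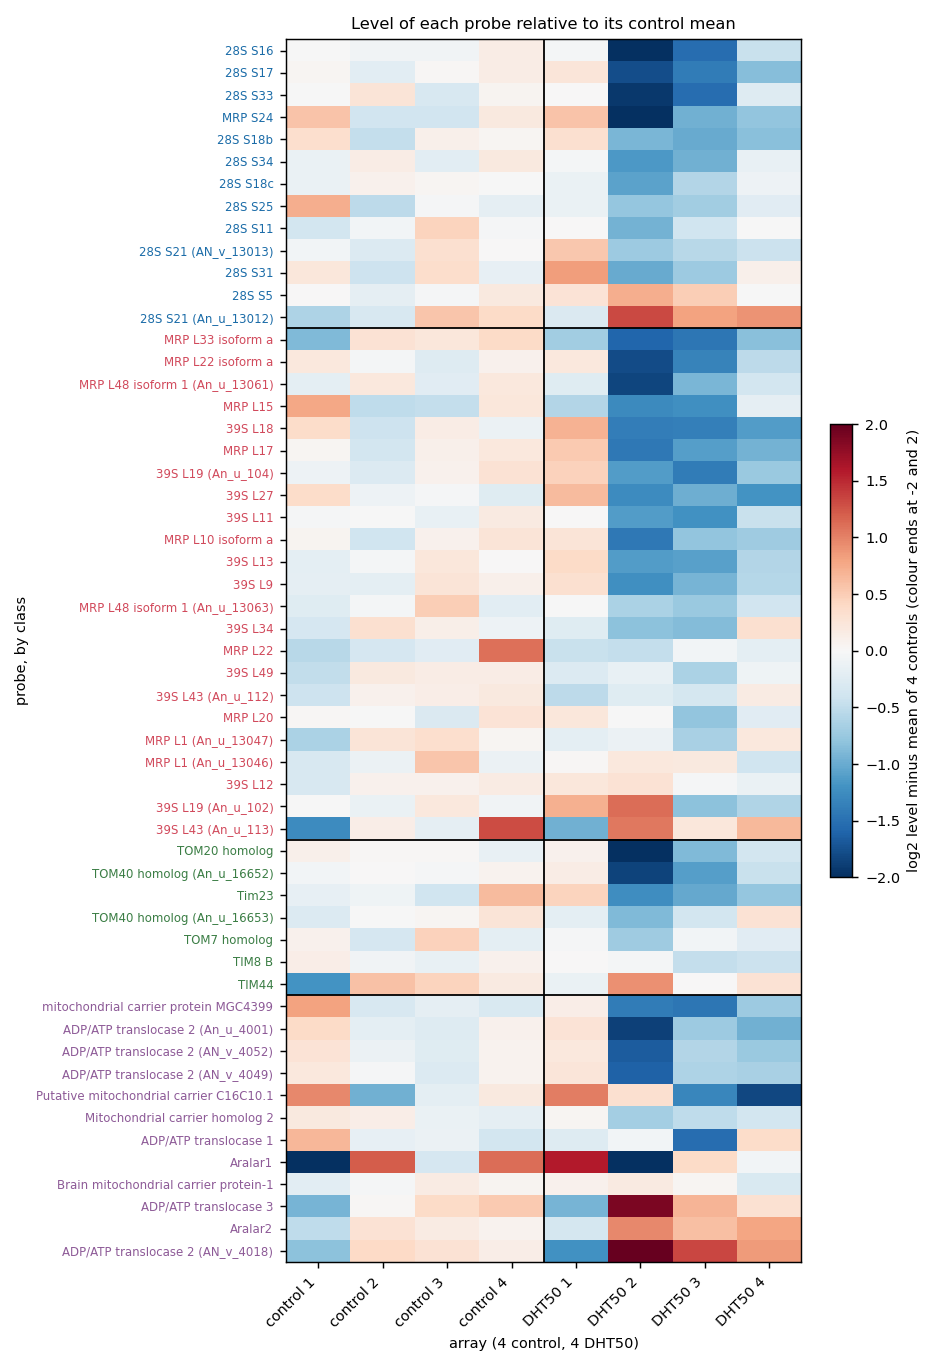
Each row is one of the 55 tested probes and each column an array; colour gives the log2 level minus the mean of the 4 controls, from -2 to 2. The columns DHT50 2, 3 and 4 are mostly blue (medians -0.94, -0.74 and -0.37). The median of DHT50 1 is near those of the controls (0.04), with 17 members above the highest control and 6 below the lowest.

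Array brightness ran with these medians among the exposed fish. Brightness was 10.95 on DHT50 1, 9.5 on DHT50 4, 9.13 on DHT50 3 and 7.97 on DHT50 2, the same order as the medians 0.04, -0.37, -0.74 and -0.94. Among controls it was 9.99 to 11.21, with medians between -0.06 and 0.09, which are measured from the controls' own mean. DHT50 2 to 4 were dimmer than every control. The controls thus do not show where the members' median lies at the brightness of these arrays. With brightness as a covariate the median change of the members was -0.22 and that of all tested probes -0.13, with 47 of 55 members and 65.0% of all probes lower. Without the brightest and the dimmest array, control 1 and DHT50 2, the members' median was -0.37 (50 of 55 lower) and that of all probes -0.10. Within slide row 1 the members' median was -0.44 (39 of 55 lower) and within row 2 it was -0.39 (44 of 55), where all probes had medians of 0.33 and 0.07. Without DHT50 2, the dimmest array, the members' median was -0.35, and the change of 24 of 55 members was smaller in size by over 1.5 times, among them S33 (-0.59), L22 isoform a (-0.55) and L48 from contig An_u_13061 (-0.51). Without DHT50 1, 26 of 55 members reached an unadjusted p under 0.05, and 23.2% of all probes did. Members and all probes were also split by mean level, at the median of the members. Of members with a mean level at or above -0.99, 25 of 28 were lower (median -0.54), as were 54.6% of all 2492 probes that bright (median -0.07). Below that level 20 of 27 members were lower (median -0.37), and 40.6% of the 3497 other probes (median 0.15).

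**Figure D3:**
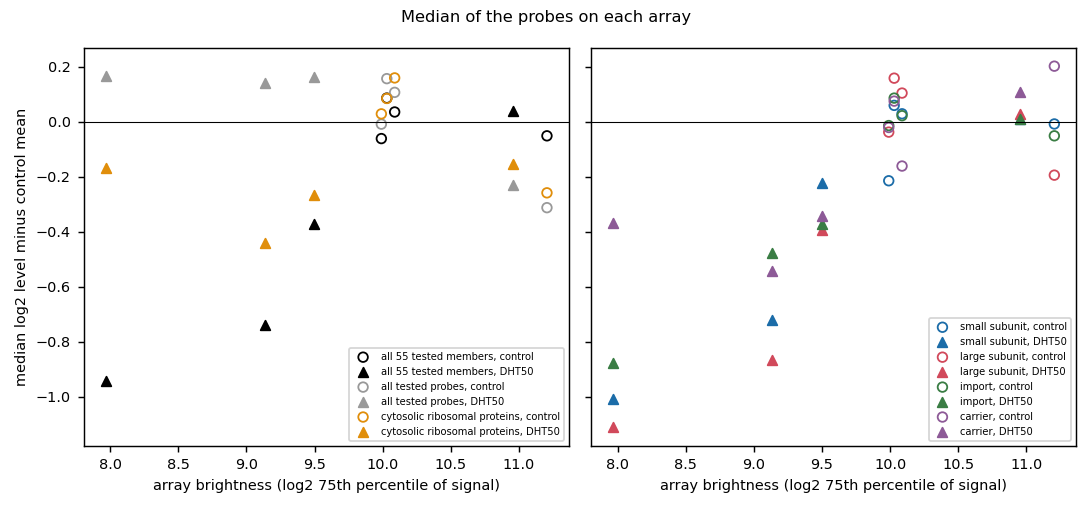
Median log2 level minus control mean on each array (vertical) against array brightness, the log2 75th percentile (horizontal); circles are controls and triangles DHT50, for all members, all tested probes and cytosolic ribosomal proteins (left) and for the 4 classes (right). Member medians run from 0.04 on the brightest DHT50 array to -0.94 on the dimmest, while those of all tested probes run from -0.23 to 0.17.

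Small subunit proteins were lower in 11 of 13 probes, with a median change of -0.47. None was at an unadjusted p under 0.05 by limma, beside 4.71% of all tested probes. 28S ribosomal protein S16 was at -0.37, -0.42, -0.43 and -0.21 on controls 1 to 4, and at -0.40, -2.37, -1.89 and -0.81 on DHT50 1 to 4. DHT50 2 to 4 were below all controls and DHT50 1 was within their range. Its change was -1.01 ± 0.45 (log2 change ± SE, n = 4 per group), 2.01 times lower, at an adjusted p of 0.685 by limma. S16 belongs to the family of a bacterial ribosomal protein that helps the small subunit to assemble. 28S ribosomal protein S17, also a conserved protein of the bacterial type, stood at -0.39, -0.64, -0.39 and -0.28 in controls and at -0.19, -2.20, -1.82 and -1.27 in DHT50. DHT50 1 was the highest of all 8 arrays and the other 3 exposed fish the lowest, with a change of -0.95 ± 0.44. Mitochondrial 28S ribosomal protein S33, a protein with no bacterial counterpart, was at 0.63, 0.91, 0.33 and 0.70 in controls and at 0.65, -1.28, -0.88 and 0.39 in DHT50. Only DHT50 2 and 3 lay below the controls here, and the change was -0.92 ± 0.47. Mitochondrial ribosomal protein S24 was at -0.82 ± 0.54, and its controls already spanned -1.17 to -0.20.

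The remaining small subunit proteins had smaller changes. S18b was at -0.61 ± 0.39, S34 at -0.58 ± 0.35, S25 at -0.46 ± 0.36, S11 at -0.34 ± 0.34 and S31 at -0.20 ± 0.45. 28S ribosomal protein S18c, a paralog of S18b, was at 1.59, 1.81, 1.76 and 1.72 in controls and at 1.59, 0.66, 1.14 and 1.63 in DHT50, a change of -0.47 ± 0.32. DHT50 2 and 3 were the lowest arrays for it. Mitochondrial 28S ribosomal protein S5, which lies where the message enters in the bacterial ribosome, was higher at 0.37 ± 0.30, with 3 of 4 DHT50 arrays above all controls, and the change was 0.10 with normexp background correction. The deviations of the 13 small subunit probes from their group means moved together over the 8 arrays, with a median pairwise Pearson r of 0.63. This was 0.29 for the 23 large subunit probes, 0.13 for the 7 import probes, -0.06 for the 12 carrier probes and 0.05 for all 5989. All probes of an array share its RNA, labelling and brightness.

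**Figure D4:**
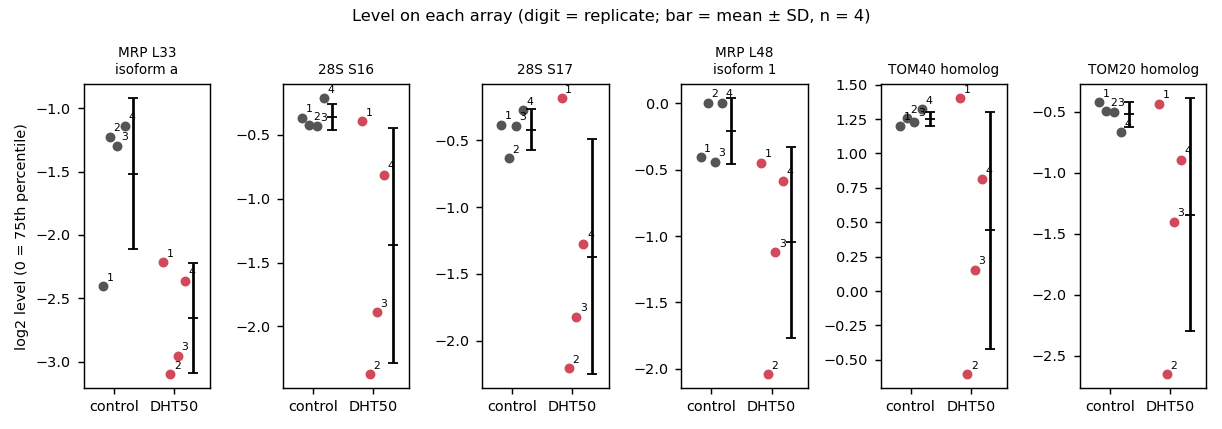
Log2 level (0 is the 75th percentile of the array) of 6 members on each array, with the replicate number beside each point and mean ± SD (n = 4) as a bar. For 28S S16 and TOM20, DHT50 1 lies within the control range, and for 28S S17 and TOM40 just above it. DHT50 2 is the lowest array for all of these. For MRP L33 isoform a control 1 (-2.40) lies among the DHT50 arrays.

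Large subunit proteins were lower in 19 of 23 tested probes, with a median change of -0.60, and 12 of them were lower by over 0.5. Mitochondrial ribosomal protein L33 isoform a, a small protein of the large subunit, was the 1 member at an unadjusted p under 0.05 (adjusted p = 0.685 by limma). It was at -2.40, -1.23, -1.30 and -1.14 on controls 1 to 4 and at -2.21, -3.10, -2.95 and -2.36 on DHT50 1 to 4. Control 1 was as low as the exposed fish and the other 3 controls lay above all of them. The change was -1.14 ± 0.39, or 2.20 times lower, and -0.35 within slide row 1, which holds control 1, against -1.14 within row 2. It was the member least moved by brightness as a covariate among the 12 with the smallest p, at -1.07, and was -0.66 with normexp.

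Mitochondrial ribosomal protein L48 isoform 1, on its probe from contig An_u_13061, was at -0.41, 0.01, -0.44 and 0.01 in controls and at -0.45, -2.04, -1.12 and -0.58 in DHT50. It was the only one of 55 members whose groups did not overlap, with control 3 at -0.44 next to DHT50 1 at -0.45, and 2.22% of all tested probes had groups apart. Its change was -0.84 ± 0.40. 39S ribosomal protein L11, which forms part of the stalk base where translation factors bind, was at -1.23, -1.22, -1.35 and -1.02 in controls and at -1.20, -2.33, -2.41 and -1.66 in DHT50, a change of -0.69 ± 0.35. The control SD of L11 was 0.13 and the DHT50 SD 0.58. Mitochondrial ribosomal protein L22 isoform a, a protein of the exit tunnel, was at -0.34, -0.59, -0.81 and -0.48 in controls and at -0.34, -2.35, -1.90 and -1.08 in DHT50, a change of -0.86 ± 0.45. For both, DHT50 1 was at the control level and the other 3 exposed fish were below all controls. Mitochondrial ribosomal protein L15 differed in that pattern: it was at 2.01, 0.73, 0.76 and 1.46 in controls and at 0.66, -0.04, 0.02 and 1.06 in DHT50. DHT50 4 lay inside the control range, and the highest level was that of control 1. The change of L15 was -0.82 ± 0.42 over all arrays, -1.80 within slide row 1 and 0.08 within row 2.

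Of the other large subunit proteins, L18 (-0.79 ± 0.49), L17 (-0.74 ± 0.44), L27 (-0.70 ± 0.45), L10 isoform a (-0.67 ± 0.40), L13 (-0.61 ± 0.39) and L9 (-0.60 ± 0.38) each had DHT50 2 to 4 below all controls. On the bacterial ribosome, L10 anchors the stalk that L12 forms, and L27 reaches toward the site where amino acids are joined. 39S ribosomal protein L12 was at 0.09 ± 0.29, with control levels of -2.33 to -1.85 and DHT50 levels of -2.15 to -1.71, so that the groups overlapped. L34 was at -0.40 ± 0.36 and L20 at -0.20 ± 0.33. Mitochondrial 39S ribosomal protein L49 was at 1.31, 2.0, 1.94 and 1.95 in controls and at 1.52, 1.66, 1.17 and 1.72 in DHT50, a change of -0.28 ± 0.31 that was 0.14 within slide row 1.

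Import transcripts were lower in 6 of 7 tested probes, with a median change of -0.29. None was at an unadjusted p under 0.05 by limma, beside 4.71% of all tested probes. TOM20, the receptor that binds targeting signals on arriving proteins, was at -0.42, -0.50, -0.50 and -0.67 in controls and at -0.43, -2.65, -1.40 and -0.89 in DHT50. TOM40, the channel of the outer membrane, was at 1.2, 1.26, 1.23 and 1.32 in controls and at 1.40, -0.60, 0.16 and 0.81 in DHT50 on its probe from contig An_u_16652. The control SD was 0.05 and the DHT50 SD 0.86, with DHT50 1 the highest of all 8 arrays for TOM40 and DHT50 2 the lowest for both. The changes were -0.82 ± 0.46 for TOM20 and -0.81 ± 0.43 for TOM40, and without DHT50 2 they were -0.39 and -0.46. With brightness as a covariate they were -0.24 and -0.30. The other TOM40 probe, from contig An_u_16653, was at -1.21, -0.94, -0.89 and -0.67 in controls and at -1.12, -1.81, -1.29 and -0.64 in DHT50. Only DHT50 2 and 3 were below the controls on it, and its change was -0.29 ± 0.34.

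Tim23, the channel of the inner membrane, ranged from -1.22 to -0.19 in controls and from -2.07 to -0.38 in DHT50, a change of -0.65 ± 0.44. TOM7, a small subunit that regulates the outer membrane complex, was at -0.26 ± 0.32, and TIM8 B, a chaperone of the space between the membranes, at -0.24 ± 0.29. TIM44, which tethers the import motor to the inner channel, was the one import probe with a higher mean, 0.27 ± 0.46. Its control 1 stood at -2.69 while the other 7 arrays lay between -1.62 and -0.57, and within slide row 2, which lacks control 1, the change was -0.11.

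Carriers were lower in 9 of 12 tested probes, with a median change of -0.37. None was at an unadjusted p under 0.05 by limma, beside 4.71% of all tested probes. ADP/ATP translocase 2, which exchanges ADP for ATP over the inner membrane, had 4 probes. The probe from contig An_u_4001 was at 3.94, 3.35, 3.28 and 3.63 in controls and at 3.81, 1.68, 2.82 and 2.59 in DHT50. From contig AN_v_4049 it was at 5.40, 5.16, 4.91 and 5.26 in controls and at 5.42, 3.57, 4.57 and 4.53 in DHT50, and from AN_v_4052 at 5.22, 4.83, 4.70 and 5.01 and at 5.16, 3.28, 4.36 and 4.19. On each of these 3 probes DHT50 2 to 4 were below all controls and DHT50 1 at the control level. Their changes were -0.82 ± 0.45, -0.66 ± 0.41 and -0.69 ± 0.41.

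The fourth probe of that name, from contig AN_v_4018, ran the other way. It was at -1.66, -0.44, -0.54 and -0.70 in controls and at -2.04, 1.49, 0.51 and 0.02 in DHT50, a change of 0.83 ± 0.68. DHT50 2 to 4 were above all controls and DHT50 1 below them, and the 2 brightest arrays, control 1 and DHT50 1, gave its lowest levels. With brightness as a covariate its change was -0.25. The sources used here do not say whether the 4 contigs belong to 1 gene.

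**Figure D5:**
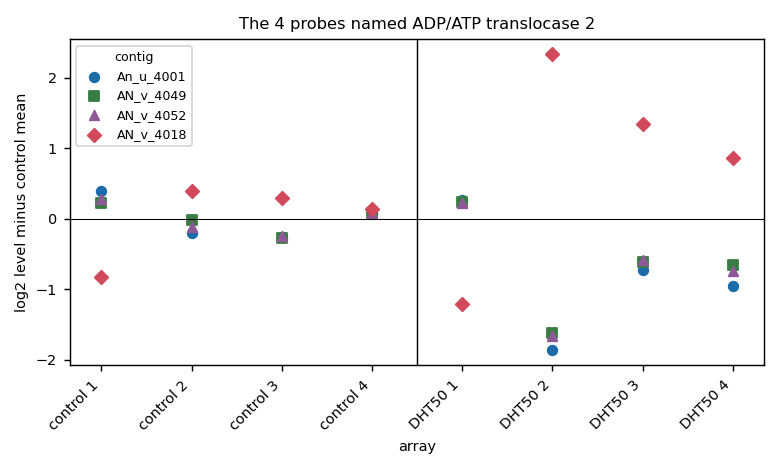
Log2 level minus control mean (vertical) of the 4 probes named ADP/ATP translocase 2 on each of the 8 arrays (horizontal), one symbol per contig. On DHT50 2 to 4 the red diamonds of AN_v_4018 lie above 0 and the other 3 probes below it, and on DHT50 1 the order is turned.

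ADP/ATP translocase 3, a sister isoform, was at 0.48 ± 0.59. Its change was 0.13 with normexp, 0.01 without DHT50 2 and -0.42 with brightness as a covariate. ADP/ATP translocase 1, the isoform of heart and muscle in mammals, was at -0.37 ± 0.45 and above background on 2 control and 2 DHT50 arrays. Aralar1 and Aralar2 exchange aspartate for glutamate over the inner membrane. Calcium-binding mitochondrial carrier protein Aralar2 (citrin) ranged from -3.14 to -2.34 in controls and from -2.97 to -1.66 in DHT50, a change of 0.50 ± 0.38 that was 0.16 with normexp. Aralar1 ranged from -5.55 to -2.35 in controls and from -5.82 to -1.97 in DHT50, a change of -0.08 ± 0.91. Brain mitochondrial carrier protein-1, an uncoupling protein homolog, had the closest group means, -3.63 ± 0.16 in controls and -3.63 ± 0.21 in DHT50 (SD, n = 4). Mitochondrial carrier homolog 2, an outer membrane protein, was at -0.38 ± 0.30. Mitochondrial carrier protein MGC4399 was at -3.09, -4.22, -4.09 and -4.21 in controls and at -3.77, -5.29, -5.35 and -4.63 in DHT50, a change of -0.86 ± 0.45, with 2 of 4 DHT50 arrays above background and -0.36 with normexp. Putative mitochondrial carrier C16C10.1, named for a worm protein, was at -0.45 ± 0.67 and above background on 1 DHT50 array.

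Among the tested members, 8 names had several probes (L22 and L22 isoform a counted as one name), and for some of them the probes had changes of opposite sign. The second probe of L22, from contig An_u_13057, was at -4.85, -4.63, -4.52 and -3.19 in controls and at -4.74, -4.78, -4.35 and -4.49 in DHT50, a change of -0.29 ± 0.41 with all exposed fish inside the control range. The second probe of L48 isoform 1, from contig An_u_13063, was at -0.51, -0.30, 0.22 and -0.47 in controls and at -0.28, -0.89, -1.0 and -0.65 in DHT50, a change of -0.44 ± 0.32. Both had the same sign as the first probe of the name, with a smaller size. The second L22 probe was dim, above background on 3 of 4 DHT50 arrays. Its change was -0.05 with normexp and 0.08 without control 4.

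39S ribosomal protein L19 was at -1.57, -1.74, -1.38 and -1.18 in controls and at -1.01, -2.58, -2.87 and -2.21 in DHT50 on contig An_u_104, a change of -0.70 ± 0.43. On contig An_u_102 it was at -0.31, -0.44, -0.09 and -0.37 in controls and at 0.41, 0.82, -1.13 and -0.90 in DHT50, a change of 0.10 ± 0.47. The L19 probes thus parted on DHT50 2, low on the first and high on the second. Mitochondrial 28S ribosomal protein S21 was at -0.04, -0.26, 0.35 and 0.03 in controls and at 0.55, -0.71, -0.54 and -0.41 in DHT50 on contig AN_v_13013, a change of -0.29 ± 0.36. On contig An_u_13012 it was at -5.59, -5.29, -4.41 and -4.58 in controls and at -5.25, -3.64, -4.17 and -4.07 in DHT50, a change of 0.69 ± 0.44. The second S21 probe was dim, above background on 3 control and 2 DHT50 arrays, and its change was 0.15 with normexp.

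39S ribosomal protein L43 was at -1.0, -0.51, -0.45 and -0.40 in controls and at -1.11, -0.82, -0.94 and -0.42 in DHT50 on contig An_u_112, a change of -0.23 ± 0.31. On contig An_u_113 it was at -5.92, -4.54, -4.85 and -3.37 in controls and at -5.63, -3.61, -4.45 and -4.03 in DHT50, a change of 0.24 ± 0.60. The exposed fish lay inside the control range there. This second L43 probe was dim, above background on 4 control and 2 DHT50 arrays, and its change was 0.09 with normexp. Mitochondrial ribosomal protein L1 was at -0.22, 0.67, 0.75 and 0.46 in controls and at 0.22, 0.30, -0.22 and 0.63 in DHT50 on contig An_u_13047, a change of -0.19 ± 0.35. On contig An_u_13046 it was at -0.83, -0.62, 0.06 and -0.61 in controls and at -0.47, -0.29, -0.31 and -0.89 in DHT50, a change of 0.01 ± 0.33. The groups of L43 and L1 overlapped on each of these 4 probes, and control 1 was the lowest control on each. Taking the mean of the probes of each name left 45 names, 38 of them lower, with a median change of -0.46. The 2 spots of a member probe differed by a median of 0.07 to 0.15 log2 units within an array.

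Controls were closer to each other than exposed fish for these members. The median SD over the 55 members was 0.28 among controls and 0.69 among DHT50, against 0.50 and 0.71 over all tested probes. Array brightness also ranged more widely in DHT50, from 7.97 to 10.95, than in controls, from 9.99 to 11.21. No test of the spread was made, and the part of brightness in it was not tested.

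Neighbouring steps of mitochondrial gene expression, taken from lists matched by product name, were few on this array. Elongation factor Ts, which recharges the factor that brings transfer RNA to the mitochondrial ribosome, was at -2.05, -1.98, -1.99 and -1.96 in controls and at -2.08, -3.68, -3.09 and -2.18 in DHT50, a change of -0.76 ± 0.40. All 4 exposed fish were below all controls, DHT50 1 and 4 by the smallest margins, so that the groups did not overlap. The other tested probe of the translation list, for leucyl-tRNA synthetase, was at 0.25 ± 0.40. Among chaperones and proteases, 5 of 7 probes were lower (median -0.38), one of them for a thyroid hormone receptor-associated nuclear protein that entered by its name. Stress-70 protein (mortalin), the motor of import in the matrix, was at 0.74 ± 0.37, and one Prohibitin probe at -0.51 ± 0.38. Other carriers and outer membrane porins were lower in 9 of 19 probes (median 0.01), and mitochondrial DNA upkeep and transcription in 2 of 4 (median -0.03). Of all 32 such probes 0 passed and 0 had an unadjusted p under 0.05 by limma, beside 0% and 4.71% of all tested probes. Cytosolic 40S and 60S ribosomal proteins were lower in 85 of 132 probes, with a median change of -0.27. At an unadjusted p under 0.05 by limma there were 2 of 132, 1 lower and 1 higher, beside 4.71% of all tested probes. On DHT50 1 to 4 their medians were -0.15, -0.17, -0.44 and -0.27, the lowest on DHT50 3. These medians pool probes that moved in both directions, 85 lower and 47 higher in DHT50. 40S ribosomal protein S13 (An_u_310) was at 3.66 to 4.09 in controls and at 4.05, 2.44, 3.14 and 2.92 in DHT50. It was not alone among the 85 lower ones. 60S ribosomal protein L27 (An_u_2600) was at 1.19 to 1.75 in controls and at 1.52, 0.18, 0.80 and 0.48 in DHT50. 60S ribosomal protein L32 (An_u_2930) was at 4.51 to 4.89 in controls and at 4.91, 3.37, 4.07 and 3.62 in DHT50. A probe of 40S ribosomal protein S25 (An_u_1052), among the 47 higher ones, was at -5.04 to -3.81 in controls. In DHT50 it was at -4.42, -2.03, -3.13 and -3.26. DHT50 2 was thus the lowest array for S13 and the highest for this S25 probe. The difference between the mitochondrial and the cytosolic ribosome was not tested.

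Markers of other cells also varied between arrays. Liver and plasma protein probes (65 of 79 tested) had a log2 summed level of 9.98 on control 1 and of 4.59 to 6.08 on the other controls, against 4.53 to 6.40 in DHT50, and 46 to 64 of the 65 were above background. Without control 1 the members' median change was -0.51 and 49 of 55 were lower. In that fit all tested probes had a median of -0.04 and 53.6% were lower, against 0.06 and 46.4% with all arrays. Of the 65 liver and plasma probes 51 were lower in DHT50, with a median change of -1.23. At an unadjusted p under 0.05 by limma there were 5 of the 65, all lower, against 4.71% of all probes. These 5 include Urokinase-type plasminogen activator, which entered by its name. The list's median relative to the control mean was 3.08 on control 1, -1.72 to -0.36 on the other controls, and -1.87, -0.09, -1.81 and -1.46 on DHT50 1 to 4.

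Blood and muscle markers mostly had higher means in DHT50. Of the 40 tested leukocyte probes of 51, 29 were higher (median change 0.54). At an unadjusted p under 0.05 by limma there were 7 of the 40, all higher, against 4.71% of all probes. The list, matched by name, also holds Interleukin enhancer-binding factor 2 homolog and the CD63, CD81 and CD9 antigens. Leukocyte medians were 0.90, 0.30, 0.85 and -0.13 on DHT50 1 to 4. Of the 14 tested red blood cell probes of 20, 9 were higher (median change 0.33), with medians of -0.73, 1.17, 0.49 and 0.59 on DHT50 1 to 4. Of the 52 tested muscle probes of 70, 40 were higher (median change 0.26), with medians of -0.43, 0.76, 0.29 and 0.44. Relative to their control means, red blood cell and muscle probes were thus low on DHT50 1 and high on DHT50 2 to 4. The median over all tested probes had the same signs (-0.23, 0.17, 0.14 and 0.16 on DHT50 1 to 4). The members' medians were 0.04 on DHT50 1 and -0.94 to -0.37 on DHT50 2 to 4. Control medians ran from -0.42 to 0.12 for red blood cell probes, from -0.53 to 0.46 for muscle and from -0.48 to 0.39 for leukocytes. The muscle medians of DHT50 1, 3 and 4 thus lay inside the control range, as did the leukocyte medians of DHT50 2 and 4. Red blood cell medians lay outside it on DHT50 1 to 4. Summed log2 levels overlapped between the groups: 4.48 to 5.21 in controls and 4.10 to 5.95 in DHT50 for leukocyte, 6.71 to 7.16 and 6.35 to 7.18 for red blood cell, and 5.38 to 5.95 and 5.19 to 6.14 for muscle probes. The 10 testis and germ cell probes, 3 of which entered by name alone, were lower in 5 and higher in 5 (median change -0.01). They summed to 1.29 to 1.44 in controls and 1.02 to 2.14 in DHT50. Relative to the control mean their medians were -0.77, 0.69, 0.19 and 0.46 on DHT50 1 to 4, and -0.44 to 0.26 on controls. DEAD-box protein 4 differed from these medians. DEAD-box protein 4 was at 0.03, -0.82, -1.17 and -0.24 in controls and at -0.02, -2.08, -2.37 and -1.59 in DHT50, a change of -0.96 ± 0.54, with DHT50 2 to 4 below all controls and DHT50 1 among them. The part of germ cell content, of other cell types and of array brightness in the members' levels was not tested beyond the values given.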

How the data were processed

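Testis RNA of 4 control and 4 DHT50 males was read on 8 Agilent arrays. The deposited spot intensity (processed signal, background-subtracted and detrended) came from Feature Extraction 10.7.1.1, per the file headers; flags scored as 0 or 1 for background, outliers and saturation were used as given (other values, per the file headers). The authors' deposited log2 table, whose medians were 7.47 on every array, served as an alternative. No spot was saturated, and 28 of 114512 readings with an outlier flag were left out. Log2 signals minus the 75th percentile of non-control spots were averaged over the 2 spots of a probe. All 5989 tested probes were fitted with limma 3.58.1 (R 4.3.3, lmFit, eBayes, two-sided), with Benjamini-Hochberg adjustment, and the fit was tested on simulated data. The median SE over tested probes was 0.45, and the number of arrays limits the precision. Replicates are called biological by the labels.

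Members and lists were chosen with earlier results of these data known. Values on each array are given for members with the 12 smallest p, the 5 brightest, those with groups apart and those of names with several probes. No probe sequences or coordinates are given here. Alternatives were normexp (offset 50, on the median spot signal), quantile and median scaling, the deposited table, 2 filters, trend with robust moderation, blocks, slide rows, each array left out and name means. Brightness as a covariate and the joint removal of control 1 and DHT50 2 were added after seeing the data.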

Additional observations from a re-analysis of the deposited data

Results flagged for a closer look

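In 7 of 120 sample groups examined (55 probes and 5 medians, each in 2 groups of 4), 1 array lay far from the other 3 by Dixon's criterion, where chance gives about 1 in 20. Of these, 4 were on control 1. Mitochondrial ribosomal protein L33 isoform a stood at -2.40 there (other controls -1.30 to -1.14), Mitochondrial 39S ribosomal protein L49 at 1.31 (1.94 or above) and 39S ribosomal protein L12 at -2.33 (-1.93 to -1.85), all low, while mitochondrial carrier protein MGC4399 was high at -3.09 (-4.22 to -4.09). The other 3 were on DHT50 1, each high: 28S ribosomal protein S18b at -1.69 (other DHT50 arrays -3.01 to -2.85), 39S ribosomal protein L18 at -0.83 (-2.91 to -2.64) and Mitochondrial 39S ribosomal protein L27 at 1.26 (-0.63 to -0.36). Control 1 and DHT50 1 were the 2 brightest arrays.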

How the results depend on the processing

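Under all 22 alternatives 0 members passed the adjusted threshold. The members' median change was below 0 in each, from -0.58 without DHT50 1 to -0.22 with brightness as a covariate, and 39 to 50 probes were lower (38 of 45 with the mean of the probes of a name). In slide row 1 alone, which holds 1 control, 106 of all tested probes passed. The number of members at an unadjusted p under 0.05 by limma was 1 in the main fit. It was 0 with normexp (1.35% of all probes) and with the slide row block (6.56% of all probes). It was 2 with quantile normalization, the deposited table, trend and robust moderation or probes above background on all arrays. With 1 array left out it ran from 1 to 26. It was 26 without DHT50 1 (47.3%, all probes 23.2%) and 4 without DHT50 4. In the other fits with 1 array left out it was 1 (1.82%), where all probes had 2.29% to 5.93%. With the replicate block it was 5, or 9.09% of members against 9.97% of all probes. As shares of the members, the 2 probes came to 3.64% to 4.26% (all probes 4.91% to 5.39%) and the 4 to 7.27% (all probes 5.58%). Neither the labels nor the values settle whether the numbers pair the fish: deviations of same-numbered arrays correlated at 0.20, 0.16, 0.38 and -0.11, and 2 of 4 controls correlated best with their own number. Among members whose change exceeded its SE, the sign turned in slide row 2 alone for 39S ribosomal protein L34 (0.21), S25 (0.018), S5 (-0.0018) and L15 (0.081), and with brightness as a covariate for the ADP/ATP translocase 2 probe of AN_v_4018 (-0.25). Slide row 2 holds 1 DHT50 array; the cause was not tested. Dim signal limits S21 (An_u_13012), L43 (An_u_113), L22 (An_u_13057), MGC4399, C16C10.1 and ADP/ATP translocase 1.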
